A study of Mus musculus with 6 samples.

Results

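ADAMTS proteases are secreted zinc metalloproteinases that carry thrombospondin type 1 repeats and cut proteins of the extracellular matrix. The account below covers 10 genes of procollagen and proteoglycan processing: 8 ADAMTS genes (Adamts1, Adamts2, Adamts4, Adamts5, Adamts7, Adamts9, Adamts10 and Adamts12), the procollagen C-proteinase gene Bmp1 and its enhancer Pcolce. They were chosen by symbol, with earlier results of these data known, and all 10 were found among the 28293 genes of the files. Reads per gene were counted in 6 RNA-seq libraries of polyadenylated RNA from a cell line labelled as mouse dermal fibroblast, 3 with the genotype Lap2alpha KO (KO) and 3 with the genotype WT. The culture medium of both groups was DMEM with fetal calf serum; the labels give no strain, age or clone. LAP2alpha is a LEM-domain protein of the nucleoplasm that is encoded by Tmpo and binds lamin A. The comparison asks which of these genes differed in expression between KO and WT cells.

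Fibrillar collagens leave the cell as procollagens with a propeptide at each end. ADAMTS2 and its close relatives ADAMTS3 and ADAMTS14 remove the N-propeptide, and BMP1, an astacin-type metalloproteinase, removes the C-propeptide with the help of PCOLCE, which binds that propeptide and has no protease activity. ADAMTS1, ADAMTS4, ADAMTS5 and ADAMTS9 cut the large proteoglycans versican and aggrecan. ADAMTS7 and ADAMTS12 share a mucin-like region and cut cartilage oligomeric matrix protein, and ADAMTS10 binds fibrillin microfibrils. In skin, loss of ADAMTS2 leaves N-propeptides on type I collagen and makes the dermis fragile.

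The KO libraries held 27281473, 26519098 and 25768678 counts and the WT libraries 22159339, 26553616 and 24659885. Tmpo, the targeted gene, had 135, 122 and 131 counts per 1e+06 counted reads (CPM) in the KO libraries, against 254, 248.9 and 252 CPM in the WT libraries, and its count sums all LAP2 isoforms. Its log2 fold change was −1.04 (SE 0.0549, adjusted p = 4.9e-08 in edgeR). Of 10 fibroblast markers 9 were higher and 1, Thy1 (named after its value was seen), was lower in KO. Over all tested genes 37.7% were higher and 37.5% lower. The markers summed to 21008 to 22326 CPM in KO and 5917 to 6276 CPM in WT. Of these sums Col1a2 alone averaged 10955 CPM in KO and 1788 CPM in WT. Lum and Fap (also named after their values were seen) passed the low-count filter only through the KO libraries. Col1a1, Col1a2 and Dcn are counted again below among the procollagen and proteoglycan genes. Markers of other cell types were at low levels. The keratinocyte list summed to 4.49 to 6.27 CPM in KO and 6.63 to 8.39 CPM in WT, and the endothelial list to 0.233 to 0.880 CPM in KO and 1.30 to 1.47 CPM in WT. The sums were 0.623 to 1.44 CPM in KO and 0.678 to 0.770 CPM in WT for leukocytes, 5.64 to 7.99 CPM in KO and 2.64 to 4.65 CPM in WT for melanocytes and glia, and 3.14 to 3.39 CPM in KO and 0.767 to 0.933 CPM in WT for skeletal muscle. Epcam (keratinocyte) and Ptprc (leukocyte) had 0 reads in the KO libraries, against 3 and 1 reads in the WT libraries. Other members of these lists had reads in both groups. Krt10 had 330 reads in KO and 415 in WT, Cdh1 86 in KO and 148 in WT, and Krt14 4 in KO and 2 in WT. Of the leukocyte list, Cd68 had 75 reads in KO and 49 in WT, and Cd79a 4 in each group. The part of these marker differences in the results below was not tested. Nothing in the labels says that replicates were separate cultures, so p-values reflect library-to-library spread, which may be technical, and a difference between lines or clones cannot be told apart from the loss of LAP2alpha. In such bulk samples fewer cells expressing a gene and less RNA per cell cannot be told apart either.

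RefSeq promoter sequences were at hand for 5 of the 10 genes, and 3 are shown because they span the range of increases described below: Adamts12 with the largest change, Adamts2 with a large one and Adamts1 with a small one. Each is the 250 bases before the RefSeq transcription start in GRCm38.p6, 5′ to 3′ on the gene's own strand. The Adamts12 window is chr15:11064523-11064772 on the plus strand, the Adamts2 window chr11:50601835-50602084 on the plus strand and the Adamts1 window chr16:85803114-85803363 on the minus strand. Capitals mark matches, on either strand, to the TATA box TATAAA or the GC box GGGCGG.
Adamts12: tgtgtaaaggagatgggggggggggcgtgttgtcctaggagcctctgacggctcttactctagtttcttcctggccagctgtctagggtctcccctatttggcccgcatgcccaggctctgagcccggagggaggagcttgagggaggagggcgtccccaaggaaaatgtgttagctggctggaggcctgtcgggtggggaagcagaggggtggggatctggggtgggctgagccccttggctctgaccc
Adamts2: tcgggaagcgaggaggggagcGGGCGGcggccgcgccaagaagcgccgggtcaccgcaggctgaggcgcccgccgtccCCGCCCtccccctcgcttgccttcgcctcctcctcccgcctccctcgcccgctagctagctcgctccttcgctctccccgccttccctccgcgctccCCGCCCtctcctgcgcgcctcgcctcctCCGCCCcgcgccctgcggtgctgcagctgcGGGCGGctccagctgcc
Adamts1: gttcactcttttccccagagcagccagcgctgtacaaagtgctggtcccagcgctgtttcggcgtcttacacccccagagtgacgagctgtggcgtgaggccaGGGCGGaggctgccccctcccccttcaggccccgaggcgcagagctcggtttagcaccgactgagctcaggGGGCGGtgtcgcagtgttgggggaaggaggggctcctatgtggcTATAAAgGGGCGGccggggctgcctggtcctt
The Adamts1 window held the TATA box, starting 32 bases before the transcription start, and 3 GC boxes. The Adamts2 window held 5 GC boxes and no TATAAA, and 34 CpG dinucleotides, against a median of 6 over the 32851 promoter windows of the table. The Adamts12 window held neither motif, and 6 CpG dinucleotides. Of all windows of this length, 12.4% held TATAAA and 32.7% held GGGCGG. The CCAAT box (CCAAT, in 33.8% of all windows), the AP-1 element (TGANTCA, 6.75%) and the Runt element (TGTGGT, 14.0%) were searched on both strands too and had no match in these windows. The matches describe letters in these windows and are not evidence of binding.

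Of the 10 genes 9 were higher and 1, Adamts5, was lower in KO. All 10 passed the low-count filter, and all 10 were called, which here means an adjusted p under 0.05 from edgeR over the whole set of tested genes. Adamts12 passed that filter only through the KO libraries, where it was high. The counts of higher genes in this paragraph and the median include it. Calls were common in this comparison: 75.1% of the 15081 tested genes were called, 37.7% higher and 37.5% lower in KO. At least 2-fold increases were called for 5 of the 10 genes (Adamts12, Adamts4, Adamts2, Bmp1 and Adamts7) and for 16.7% of all tested genes. In a test against a fold of 1.5, 8 of the 10 were called higher, where 20.5% of all tested genes were, and Adamts1 and Adamts5 were not called. All 3 KO values lay above all 3 WT values for 9 of the 10 genes and for 42.2% of all tested genes. The median log2 fold change of the 10 genes was 1.10, and that of all tested genes was 0.01. Because the 10 genes were chosen with earlier results of these data known, these comparisons with all tested genes are descriptions and not tests. Fold changes are KO over WT from a fit that rescales the libraries, so they differ somewhat from the ratio of mean CPM.

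**Figure D1:**
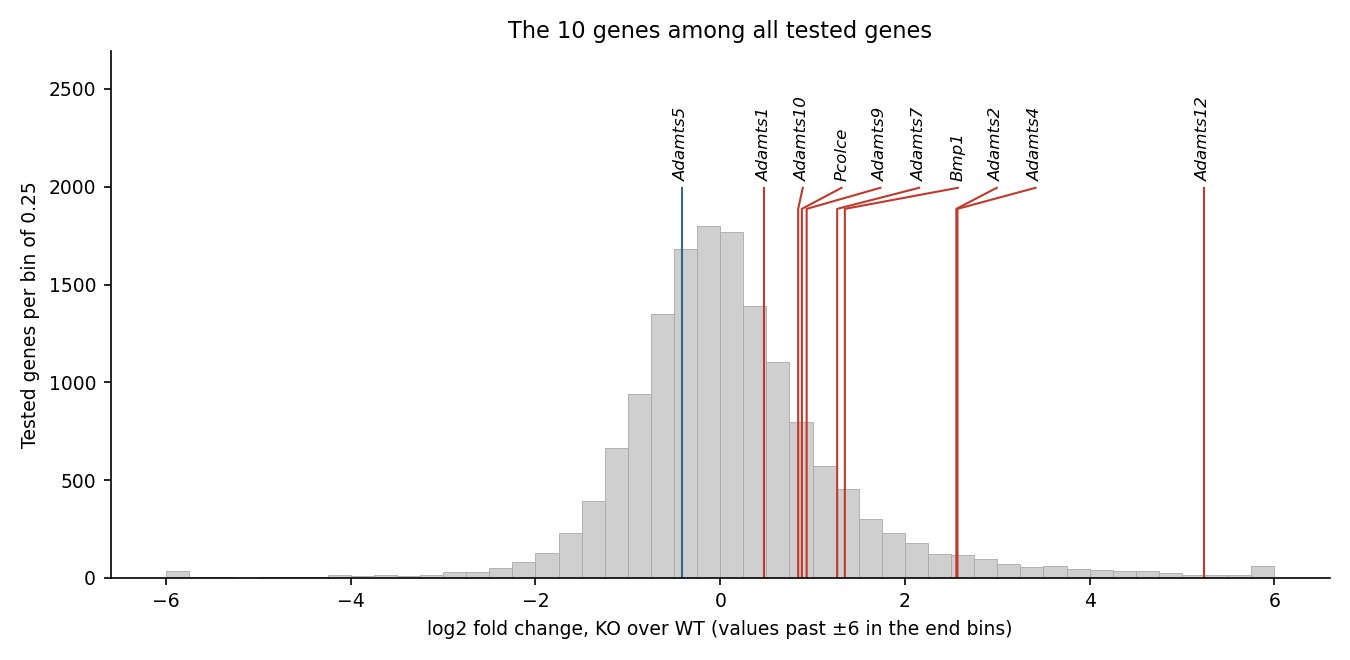
Histogram of the log2 fold change (KO over WT) of all 15081 tested genes, in bins of 0.25 with values past ±6 in the end bins, and with lines at the 10 genes (red, higher in KO; blue, lower in KO). Adamts5 at −0.42 lies left of 0, 8 genes lie between 0.47 and 2.57, and Adamts12 stands at 5.23. Adamts12 passed the low-count filter only through the KO libraries.

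Genes for both ends of procollagen processing rose in KO. Adamts2, the procollagen N-proteinase of skin (chr11:50602084-50807573, plus strand), had 148, 148 and 153 CPM in the KO libraries, against 23.2, 25.1 and 24.1 CPM in the WT libraries. The groups were far apart, with every KO value above every WT value. Its fold was 5.89 (log2 fold change 2.56, SE 0.0564, adjusted p = 2.6e-10 in edgeR), which placed it at the 95.7th percentile of fold changes among tested genes. Bmp1, the C-proteinase, which also activates lysyl oxidase (chr14:70474558-70520234, minus strand), had 91.2, 94.4 and 99.0 CPM in KO and 31.8, 36.6 and 37.4 CPM in WT. The groups did not overlap, and Bmp1 rose 2.55-fold (log2 fold change 1.35, SE 0.0692, adjusted p = 3.9e-08 in edgeR). Pcolce (chr5:137605103-137613784, minus strand) was the most abundant of the 10 genes, with 703, 777 and 794 CPM in KO against 362, 409 and 397 CPM in WT. It rose 1.85-fold (log2 fold change 0.88, SE 0.0653, adjusted p = 5.8e-07 in edgeR), again with no overlap between the groups. In the annotation 2.93% of its exonic sequence is shared with Fbxo24 on the same strand.

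**Figure D2:**
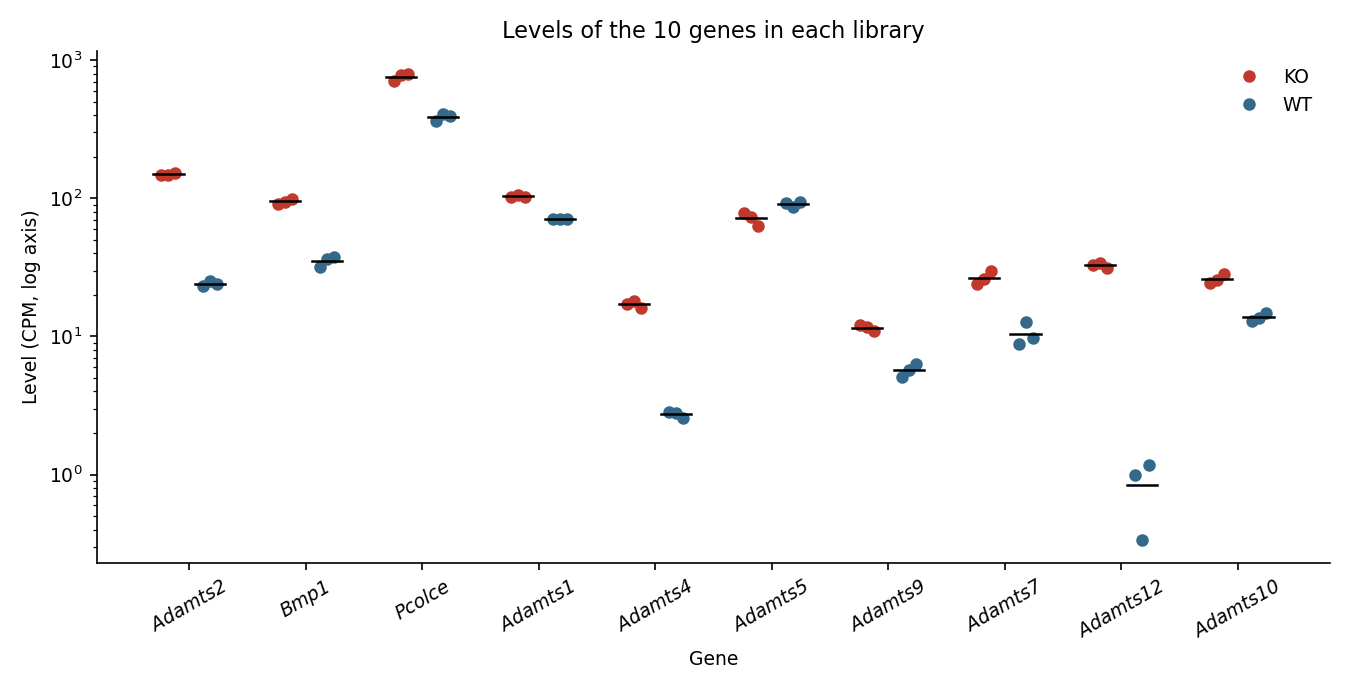
Level of each of the 10 genes in CPM (log axis) in the 3 KO libraries (red) and the 3 WT libraries (blue), with a line at each group's mean. The KO points lie above the WT points for every gene except Adamts5, and the widest gap is that of Adamts12, at 31.3 to 33.9 CPM in KO and 0.339 to 1.18 CPM in WT.

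The relatives of these processing genes went in different directions. Adamts14, which encodes another N-proteinase, rose to 34.2 ± 3.41 CPM in KO, against 7.58 ± 1.48 CPM in WT (SD, n = 3 each), a log2 change of 2.09 (SE 0.130, adjusted p = 1.6e-07 in edgeR). Adamts3, the remaining member of that subfamily, had 0 reads in the KO libraries and 1 read in the WT libraries and was not tested. Tll1, which encodes the BMP1-related proteinase tolloid-like 1, had 5 reads over the KO group and 119 over the WT group, a ratio of depth-scaled counts of 0.0387 (exact 95% binomial interval 0.0124 to 0.0930). Its log2 fold change was −4.66 (SE 0.445, adjusted p = 4.2e-06 in edgeR), and −5.36 to −4.08 on leaving out single libraries. Tll1 passed the low-count filter only through the WT libraries, so its direction is no result. Pcolce2, the second enhancer gene, moved opposite to Pcolce. It fell to 14.0, 13.8 and 14.0 CPM in KO, against 54.2, 52.5 and 52.6 CPM in WT (log2 fold change −2.01, SE 0.0581, adjusted p = 1.1e-09 in edgeR). Within a library, Pcolce was 60.9, 68.2 and 68.4 times Pcolce2 per length in KO and 8.09, 9.43 and 9.13 times in WT.

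The list of astacins, enhancers and cofactors had 6 tested members, of which 3 were higher and 3 lower (median log2 fold change −0.49). Over all tested genes 37.7% were higher and 37.5% lower. The higher ones were Postn, for the matricellular protein periostin, which binds BMP1 (2.59), Sfrp2, for a secreted frizzled-related protein reported to bind BMP1 (1.51), and Fbln1, for fibulin-1, a cofactor of ADAMTS1 (1.02). Beside Tll1 and Pcolce2 the third lower member was Mep1a, a meprin gene named after its value was seen, which had 12 reads over the KO libraries and 55 over the WT libraries. Tll1 and Mep1a passed the low-count filter only through the WT libraries, and Col11a1, below, only through the KO libraries, so the counts of both lists include genes that could be tested only because they were high in 1 group. Of 9 fibrillar procollagen chains, the substrates of these enzymes, 8 were higher, none was lower and Col11a2 was not called (0.47). The median of this list was 2.27 on the log2 scale, beside 0.01 for all tested genes, of which 37.7% were higher. The largest increases were those of Col11a1 (7.41), a type XI chain, Col5a3 (3.74), a type V chain, and Col3a1 (3.69), the type III chain.

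Set against their substrates within each library, Bmp1 and Pcolce had KO values far below the WT values, and the N-proteinase genes had KO values just below them. These ratios were chosen after the values of the genes were seen. They use TPM, transcript abundances made by dividing counts by exonic length and scaling each library to a sum of 1e+06, and take the summed TPM of Col1a1, Col1a2 and Col3a1 as fibrillar procollagen. Bmp1 stood at 5.86, 5.87 and 5.96 TPM per 1000 TPM of procollagen in KO and at 12.6, 13.3 and 13.2 in WT, so the mean was 0.452 times that of WT. Pcolce stood at 105, 112 and 111 TPM per 1000 TPM of procollagen in KO and at 332, 346 and 325 in WT. For the N-proteinase genes Adamts2, Adamts3 and Adamts14 together the values were 12.4, 12.5 and 12.6 in KO and 12.7, 13.9 and 13.2 in WT. These last groups lay close to each other, with means of 12.5 ± 0.0958 in KO and 13.3 ± 0.632 in WT (SD, n = 3 each). Pcolce per Bmp1 averaged 18.5 ± 0.613 in KO and 25.7 ± 0.968 in WT (SD, n = 3 each). The exact two-sided permutation test gave p = 0.10 for each of the 9 ratios computed in all, which is the smallest p that 3 against 3 libraries allow and stays 0.10 after Benjamini-Hochberg adjustment.

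**Figure D3:**
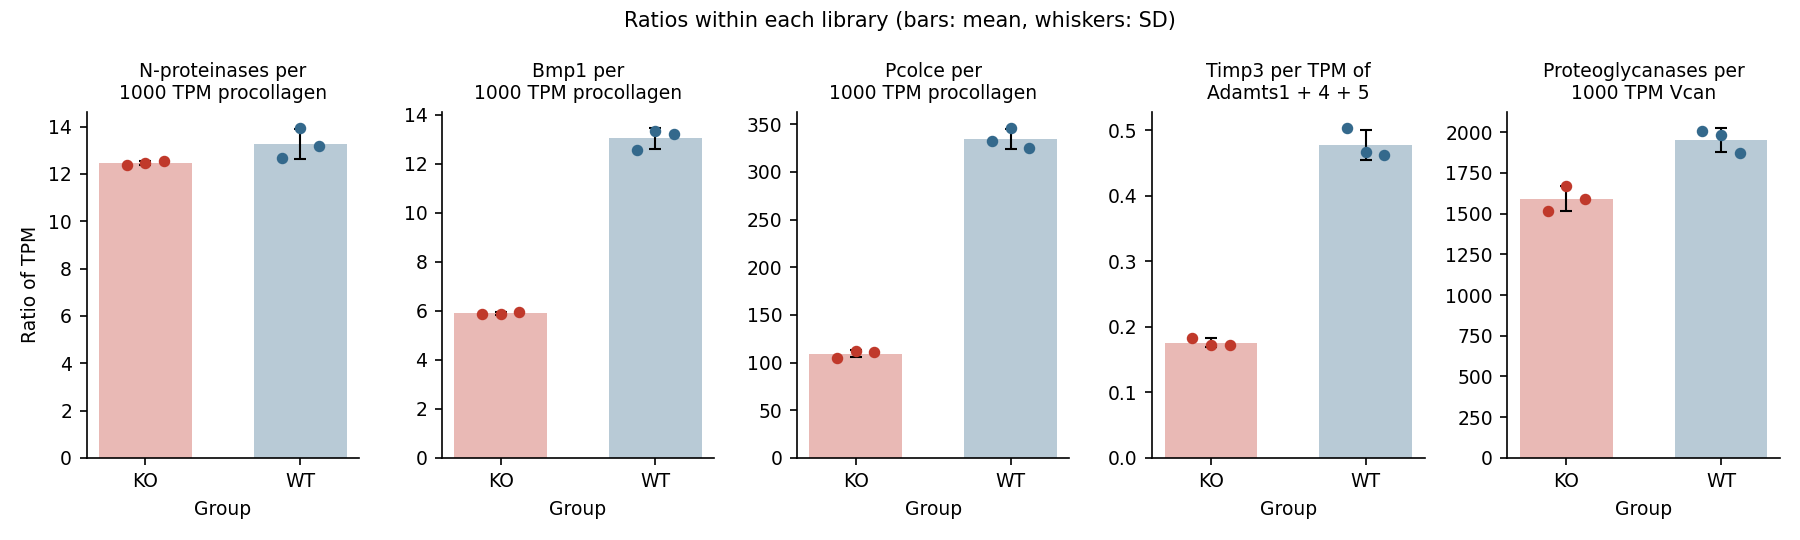
Ratios of TPM within each library (points), with group means (bars) and SD (whiskers), KO in red and WT in blue. Bmp1, Pcolce and Timp3 ratios are lower in KO by more than the spread of the libraries, while the N-proteinase ratio averages 12.5 in KO and 13.3 in WT.

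The proteoglycanase genes did not move as a block. Adamts4, an aggrecan- and versican-cutting enzyme (chr1:171250421-171260637, plus strand), had 17.2, 18.02 and 16.1 CPM in KO, against 2.84, 2.79 and 2.55 CPM in WT. All KO values were several times the WT values, and the fold was 5.93 (log2 fold change 2.57, SE 0.0992, adjusted p = 5.9e-09 in edgeR). Adamts9, which acts on versican (chr6:92772699-92943492, minus strand), had 12.2, 11.7 and 10.9 CPM in KO and 5.10, 5.76 and 6.37 CPM in WT. It rose 1.91-fold without overlap between the groups (log2 fold change 0.94, SE 0.103, adjusted p = 1.3e-05 in edgeR), and 11.995% of its exonic sequence lies opposite other gene models.

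Adamts1 and Adamts5 are neighbours on the minus strand of chromosome 16, 53.1 kb apart, and changed in opposite directions. Adamts1, a versican-cutting protease gene (chr16:85793827-85803113), had 102, 106 and 103 CPM in KO and 70.4, 71.0 and 70.9 CPM in WT. It rose 1.39-fold (log2 fold change 0.47, SE 0.0480, adjusted p = 6.6e-06 in edgeR). Adamts5, for the main aggrecan-cutting enzyme of mouse cartilage (chr16:85856173-85901828), had 78.7, 73.2 and 63.3 CPM in KO and 92.5, 86.6 and 93.5 CPM in WT. It was the only one of the 10 genes whose KO values all lay below its WT values, by 0.42 on the log2 scale (log2 fold change −0.42, SE 0.0755, adjusted p = 0.00050 in edgeR). Neither of these changes was called against a fold of 1.5. Within a library, Adamts5 was 0.378, 0.338 and 0.303 times Adamts1 per length in KO and 0.645, 0.599 and 0.648 times in WT. Adamts4 was 0.538 ± 0.0430 times Adamts5 in KO and 0.0675 ± 0.00560 times in WT (SD, n = 3 each).

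Among proteoglycan genes, 2 of 3 tested were higher, beside 37.7% of all tested genes, and Bgn, for biglycan, was not called (0.00). Dcn, for decorin, rose with a log2 fold change of 3.45, and Vcan, for versican, rose to 278 ± 15.3 CPM in KO, against 168 ± 8.11 CPM in WT (SD, n = 3 each; log2 fold change 0.65, SE 0.0573, adjusted p = 2.4e-06 in edgeR). The summed TPM of Adamts1, Adamts4, Adamts5 and Adamts9 per 1000 TPM of Vcan was 1516, 1668 and 1592 in KO and 2008, 1983 and 1871 in WT. The KO mean of this ratio was 0.815 times that of WT, without overlap.

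Of 6 tested genes in a list of metalloproteinase inhibitors, a clearance receptor and syndecan-4, 3 were higher and 3 lower (median −0.04). The split of all tested genes was alike (37.7% higher, 37.5% lower, median 0.01). Timp3, for the tissue inhibitor most active against ADAMTS4 and ADAMTS5, fell to 45.0, 42.9 and 40.0 CPM in KO, against 92.1, 83.8 and 84.9 CPM in WT. Its log2 fold change was −1.11 (SE 0.0634, adjusted p = 8.7e-08 in edgeR), and the groups were well apart. Timp1 (−0.83) and Sdc4, for the cell-surface proteoglycan syndecan-4 (−0.51), were lower too. Timp2 (0.80), Reck, for a membrane-anchored metalloproteinase inhibitor (0.63), and Lrp1, for the endocytic receptor that takes up ADAMTS5 (0.43), were higher. Timp3 per TPM of Adamts1, Adamts4 and Adamts5 together was 0.183, 0.172 and 0.172 in KO and 0.504, 0.468 and 0.462 in WT, without overlap. With the length of the longest transcript its means were 0.284 in KO and 0.782 in WT.

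Adamts12 had the largest change of the 10 genes. This gene for a protease that cuts cartilage oligomeric matrix protein (chr15:11064790-11349231, plus strand) had 901, 899 and 806 reads in KO and 22, 9 and 29 reads in WT, which is 33.0, 33.9 and 31.3 CPM in KO and 0.993, 0.339 and 1.18 CPM in WT. The WT values were low and varied among themselves, while the KO values were close together. The gene passed the low-count filter only through the KO libraries, since WT replicate 2 lay under its minimum, so its direction in the test is no result. The reads above and the values that follow describe these libraries. The fold was 37.6 (log2 fold change 5.23, SE 0.206, adjusted p = 6.6e-09 in edgeR), at the 99.4th percentile of fold changes among tested genes. Its relative Adamts7 (chr9:90163069-90208071, plus strand) had 23.9, 26.0 and 29.7 CPM in KO and 8.75, 12.7 and 9.73 CPM in WT. The groups did not overlap, and the fold was 2.41 (log2 fold change 1.27, SE 0.135, adjusted p = 9.7e-06 in edgeR). The opposite strand of Adamts7 carries Tbc1d2b over 1.94% of its exonic sequence.

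Adamts10, the gene of a fibrillin-binding protease whose loss causes Weill-Marchesani syndrome in humans (chr17:33524204-33553782, plus strand), had 24.3, 25.6 and 28.5 CPM in KO and 12.95, 13.7 and 14.7 CPM in WT. It rose 1.80-fold without overlap (log2 fold change 0.84, SE 0.0849, adjusted p = 6.3e-06 in edgeR). Adamts6, its closest relative, had 8.45 ± 0.876 CPM in KO and 6.79 ± 0.322 CPM in WT (SD, n = 3 each) and was not called (log2 fold change 0.24, SE 0.105, adjusted p = 0.062 in edgeR). It was called higher without KO replicate 3 (0.30, adjusted p = 0.027 in edgeR), under upper-quartile scaling and under library totals alone. Of the ADAMTS-like genes, whose products have the repeats but no protease domain, 2 of 4 tested were higher and 2 lower (median −0.17). The shares over all tested genes were 37.7% higher and 37.5% lower. Adamtsl4, whose product binds fibrillin, had 67.3 ± 2.34 CPM in KO and 17.5 ± 1.199 CPM in WT (SD, n = 3 each; log2 fold change 1.87), and Adamtsl5 rose less (0.56). Adamtsl3 (−1.39) and Thsd4, whose product promotes microfibril assembly (−0.90), were lower.

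Elsewhere in the family, 18 ADAMTS genes were in the files and 12 were tested. Beside the 8 described and Adamts6 and Adamts14, the tested ones were Adamts15 and Adamts16, named after their values were seen. Adamts15 had 62 reads over the KO group and 2 over the WT group, a ratio of depth-scaled counts of 28.6 (exact 95% binomial interval 7.59 to 241). Adamts16 had 52 reads in KO and 4 in WT, a ratio of 11.99 (4.41 to 45.6). Both passed the low-count filter only through the KO libraries, so their direction is no result. The 6 genes not tested had at most 6 reads in any library.

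Compared per length, Pcolce led in both groups, at 431 ± 27.6 TPM in KO and 221 ± 16.4 TPM in WT (SD, n = 3 each). Adamts1 came next, at 42.5 ± 0.506 TPM in KO and 28.9 ± 0.629 TPM in WT. In KO the order went on with Adamts2 (34.9 TPM), Bmp1 (23.2), Adamts5 (14.4), Adamts7 (9.18), Adamts4 (7.72), Adamts10 (6.88), Adamts12 (6.51) and Adamts9 (1.68). In WT it went on with Adamts5 (18.2 TPM), Bmp1 (8.62), Adamts2 (5.60), Adamts10 (3.62), Adamts7 (3.59), Adamts4 (1.23), Adamts9 (0.828) and Adamts12 (0.166). Neighbours whose libraries overlapped were Adamts4 and Adamts10, and Adamts10 and Adamts12, in KO, and Adamts10 and Adamts7 in WT. Adamts12 was thus last in WT and ahead of Adamts9 in KO.

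The 8 ADAMTS genes summed to 124 ± 0.552 TPM in KO and 62.2 ± 1.90 TPM in WT (SD, n = 3 each), and the make-up of that sum differed. Adamts2 gave 28.2 ± 0.660% of it in KO and 8.998 ± 0.298% in WT. Adamts5 gave 11.7 ± 1.28% in KO and 29.3 ± 1.27% in WT, and Adamts1 gave 34.3 ± 0.407% in KO and 46.5 ± 0.409% in WT. The shares of Adamts4 were 6.24 ± 0.309% in KO and 1.98 ± 0.132% in WT, and those of Adamts12 were 5.26 ± 0.187% in KO and 0.267 ± 0.140% in WT. Adamts7 gave 7.41 ± 0.834% in KO and 5.77 ± 1.12% in WT. For Adamts9 (1.35% in KO, 1.33% in WT) and Adamts10 (5.55% in KO, 5.81% in WT) the group means differed by less than the SD of the KO libraries.

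**Figure D4:**
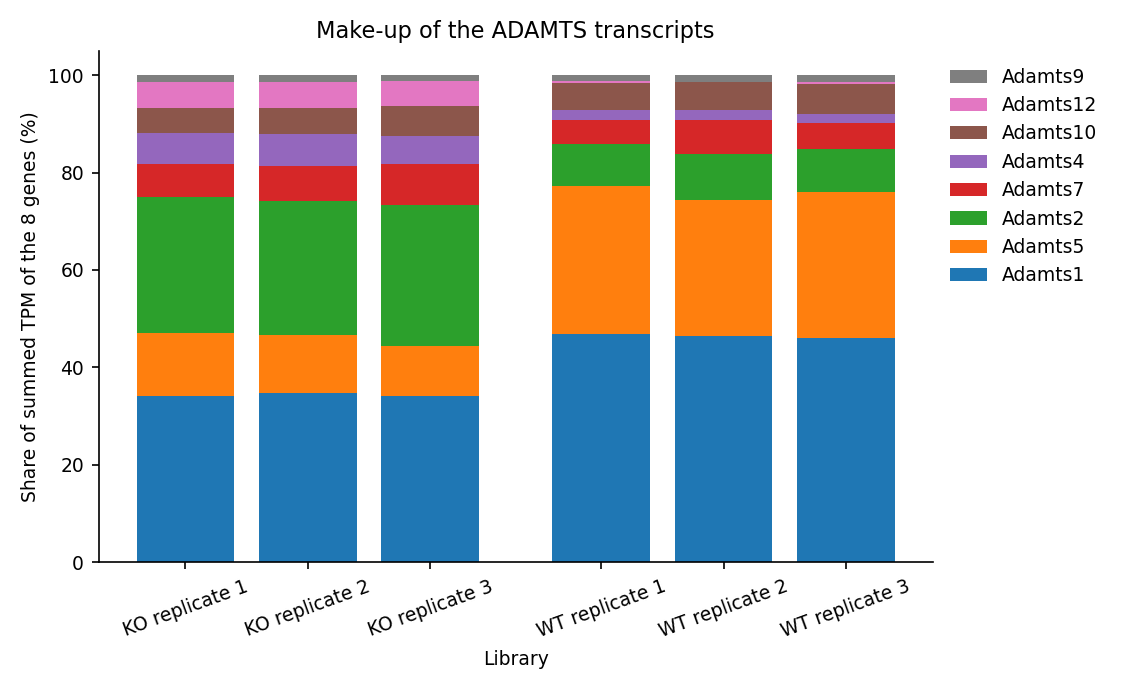
Share of each of the 8 ADAMTS genes in their summed TPM (%), as stacked bars for the 3 KO and the 3 WT libraries. Adamts2 takes 27.6 to 28.9% of each KO bar and 8.76 to 9.33% of each WT bar, while Adamts5 takes 10.3 to 12.9% in KO and 27.9 to 30.3% in WT.

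Among genes that mature ADAMTS proteins, Furin, the gene of the convertase that removes ADAMTS propeptides, had 36.2 ± 2.14 CPM in KO and 37.3 ± 1.30 CPM in WT (SD, n = 3 each) and was not called (−0.12, SE 0.0642, adjusted p = 0.11 in edgeR). Pcsk7, a related convertase gene, was lower (−0.30), so 1 of 2 tested convertase genes was called. Of 4 genes for sugar addition to thrombospondin repeats, 1 was higher and 3 were not called (median 0.08), where 75.1% of all tested genes were called. Dpy19l3, for a C-mannosyltransferase, was higher (0.41). Pofut2 (0.05) and B3glct (0.12), which add O-linked fucose and then glucose, and the C-mannosyltransferase gene Dpy19l1 (−0.02, but 0.039 under upper-quartile scaling) were not called. B3glct was called higher under upper-quartile scaling and under library totals alone, which makes 2 of the 4.

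**Figure D5:**
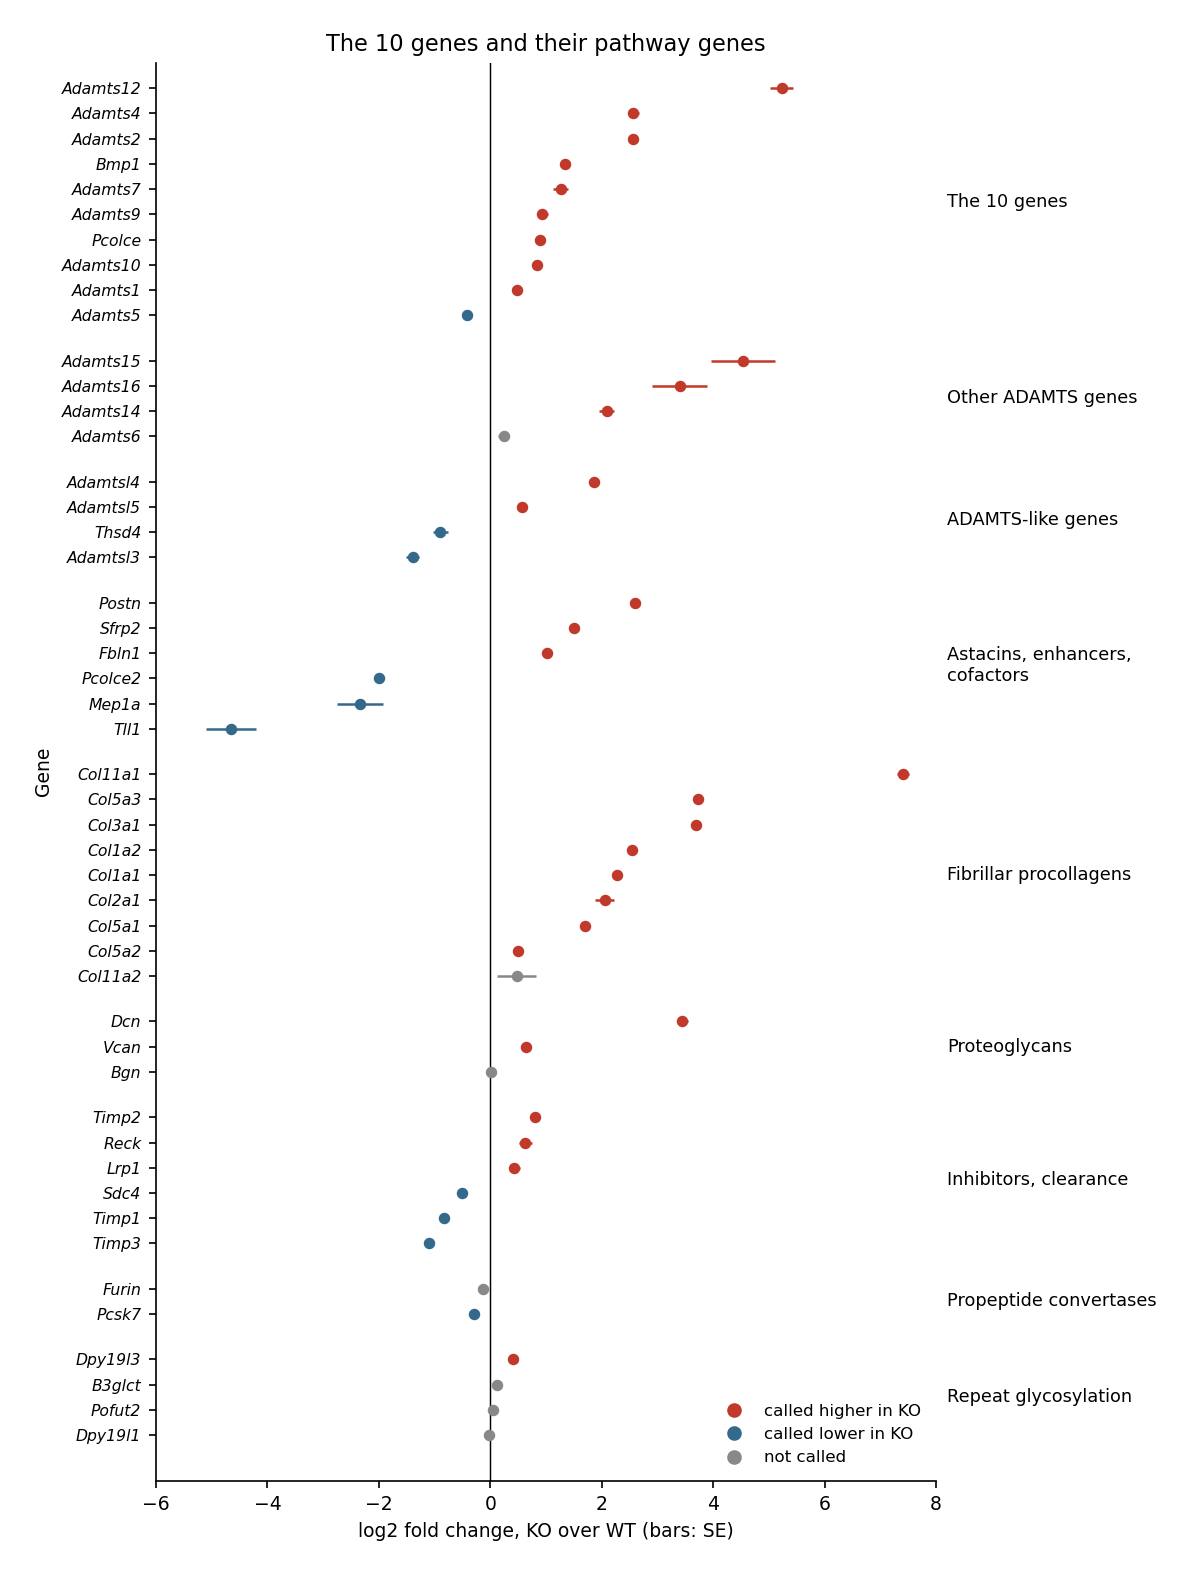
Log2 fold change (KO over WT) with its SE for the 10 genes and the tested genes of 8 pathway lists, coloured red where called higher, blue where called lower and grey where not called. Procollagen chains lie to the right with up to 7.41 for Col11a1, the inhibitors lie on both sides of 0, and Tll1 at −4.66 is farthest to the left. Col11a1 passed the low-count filter only through the KO libraries and Tll1 only through the WT libraries, so the directions of these extremes are no result.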

How the data were processed

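Polyadenylated RNA of 6 libraries was sequenced. The authors deposited raw counts per Ensembl gene, 1 file per library; reads were aligned with STAR 2.7.10b to GRCm38, per the submitters' processing notes. Not given in the sources used here are the counting program, its annotation, its strand setting and its treatment of multi-mapping reads, so reads of opposite-strand genes may be included. GENCODE M21 gave symbols, positions and exonic lengths for 28230 of 28293 identifiers. Totals of 22159339 to 27281473 counts limit the precision of low genes, and the counting intervals given cover counting error only.

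The 3 KO and 3 WT libraries entered 1 fit in edgeR 4.0.16 (R 4.3.3; filterByExpr, TMM, quasi-likelihood test, Benjamini-Hochberg over 15081 genes). CPM use library totals; TPM use the union of annotated exons. Genes outside the 10 were named by a rule: of each pathway list, up to 3 called members with the largest increase and 3 with the largest decrease at 1 CPM or more, and members not called where a list had 5 or fewer. Thy1, Lum, Fap, Mep1a, Adamts15, Adamts16, the keratinocyte and leukocyte markers and the genes at 0 reads were named outside this rule. The 10 genes and the lists were chosen with earlier results of these data known, and the ratios of TPM after their values were seen. The test was checked on simulated counts in which few genes changed. That check does not cover a comparison in which most genes are called, as here. Alternatives included DESeq2 1.42.0, limma 3.58.1, other scalings and filters, a replicate block and leaving out each library. Protein sequences were not analysed here. Python 3.11.15 with scipy 1.17.1 ran permutation tests.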

Additional observations from a re-analysis of the deposited data

How the results depend on the processing

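Under 16 alternatives to the edgeR fit, all 10 genes kept their direction. The 9 higher genes and the lower one kept their call under every alternative except the test against a fold of 1.5, where Adamts1 (0.47) and Adamts5 (−0.42) were not called (adjusted p = 1 in edgeR), leaving 0 of the 10 genes called lower. That test asks for a larger change, and it called 5621 genes, 3094 higher and 2527 lower, where the test of no change called 11330. Adamts12, which passed the low-count filter only through the KO libraries, ranged from 4.83 to 5.56 on leaving out single libraries. Some genes that were not called changed sign: Bgn without the low-count filter (−0.015) and on leaving out libraries (−0.069 to 0.040), Dpy19l1 under upper-quartile scaling (0.039), under library totals alone (0.054) and on leaving out libraries (−0.067 to 0.0069), and Pofut2 on leaving out libraries (−0.0087 to 0.10). With lengths of the longest transcript 7 of the 10 genes held the same place in the order of levels in KO and 6 in WT. Of the 3 other ADAMTS genes called higher, 1 was left when 1 CPM was required in 3 libraries, and 8 of 256 counts over the pathway lists moved by more than 1.5 times. The KO-over-WT values of the TPM ratios, chosen after seeing the data, moved by less than 1 SD in all 63 alternatives. Most of these left out 1 library, which moves a mean of 3 by less than 1 SD whatever the values. Only the alternatives with the longest transcript could have moved further. The levels of the ratios depend on the length used. With the longest transcript the N-proteinase genes stood at 8.49 TPM per 1000 TPM of procollagen in KO and 9.17 in WT, and Pcolce at 91.9 in KO and 290.3 in WT. No clear pairing of the libraries by replicate number was seen. Same-numbered libraries had deviation correlations of 0.148, −0.115 and 0.160, and only KO replicate 1 of the 3 KO libraries correlated best with its own number. The check cannot exclude pairing, since deviations from the mean of 3 libraries depend on each other. With the replicate block 11697 genes were called and the 10 genes kept their calls. Genes under about 1 CPM, such as Adamts15 and Adamts16, rest on few reads.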

Other observations

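The tested genes that flank the 10 genes on the chromosome were called at about the shares of all tested genes, of which 37.7% were higher and 37.5% lower. Of 20 flanking positions, 7 held a gene called in the same direction as its neighbour among the 10, 8 held a gene called in the opposite direction and 5 held a gene that was not called, with Adamts1 and Adamts5 counted once from each side. Bmp1 (log2 fold change 1.35) lies between Polr3d (−0.90) and Reep4 (−0.88), both lower in KO. Adamts12 (5.23) lies between Amacr, 68.2 kb away (0.68), and Tars, 33.1 kb away (−0.45). Adamts2 (2.56) lies 3.51 kb from Zfp354c, which was higher too (1.53), and Adamts9 (0.94) lies 66.5 kb from Prickle2, also higher (1.81). These positions were examined after the values of the 10 genes were seen, and no test was made of them.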
